A study of Drosophila melanogaster with 15 samples.

Results

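Transcript levels and splicing of 7 genes of the *Drosophila* clock and its output, *Clk*, *cyc*, *vri*, *Pdp1*, *cwo*, *cry* and *takeout* (*to*), were measured by RNA-Seq in whole heads of adult flies. The genes were taken by symbol from a table of 13259 genes, and 1827 splice junctions and 88 exons in the companion tables carry 1 of these symbols alone. The 15 libraries came from 3 genotypes with 5 libraries each. In *GMR > prp4* RNAi flies, an RNAi transgene of the GD collection against *prp4* (*CG7028*) was driven by *GMR-Gal4*, an eye-specific driver. In *GMR > prp8* RNAi flies the same driver was combined with a GD transgene against *prp8*. *GMR/+* controls, and with them all 3 genotypes, carried the driver, and the controls had no RNAi transgene. Flies were 3 to 5 days old, had gone through at least 3 cycles of 12 hr light and 12 hr dark, and were frozen at 1 time of day, given as ZT12 in the labels. The text that accompanies the data names an earlier time in one place, so the time of day to which the levels of cycling genes refer is not settled. The RNAi transgenes were thus driven in the eye, whereas the RNA was that of the whole head. Fewer cells of a type and less RNA per cell cannot be told apart in such samples. The labels do not say whether the libraries of a genotype came from separate sets of flies. A figure legend in the accompanying text calls them independent biological replicates, for *GMR > prp4* RNAi and *GMR/+* only. The p-values measure the spread between these libraries only.

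CLK and CYC are basic helix-loop-helix PAS proteins that bind E-boxes as a dimer and activate the other genes of the clock, among them *per* and *tim*, whose products later repress CLK/CYC. In a connected loop, the bZIP proteins VRI and PDP1, both made under control of CLK/CYC, repress and activate *Clk*, and CWO, a basic helix-loop-helix Orange protein, binds E-boxes as a repressor. CRY is a blue-light photoreceptor that resets the fly clock through degradation of TIM, and Takeout is a secreted protein of the juvenile hormone binding family, linked to feeding and male courtship, whose gene is an output of the clock. PRP4 and PRP8 are proteins of the spliceosome, PRP4 being a kinase and PRP8 lying at its catalytic core.

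The authors had resampled the libraries to equal depth before reads were counted, so the counts do not show how deeply each was sequenced. Libraries held from about 11753600 to 11979900 reads counted in genes and from about 3129160 to 3244360 junction reads. The RNAi target *CG7028* had 111 to 149 reads in *GMR > prp4* RNAi and 141 to 165 reads in *GMR/+* heads, a log2 fold change of -0.23 that did not pass (edgeR adjusted p = 0.101). *Prp8* had 1264 to 1311 reads in 4 of the *GMR > prp8* RNAi libraries, against 1339 to 1545 reads in *GMR/+*. Over all 5 libraries *Prp8* differed by -0.11 (edgeR adjusted p = 0.278), and by -0.16 without the library described next (0.0552), so a lower level of either target was not shown in whole heads, and knockdown is used here as the name of a genotype. The library labelled *GMR > prp8* RNAi replicate 14 stood apart, with 1572 reads of *Prp8*. It had 2064 reads of *CG10407*, a gene of the takeout family, where the other *GMR > prp8* RNAi libraries had 9 to 14, *GMR > prp4* RNAi libraries 1991 to 2205 and *GMR/+* libraries 3 to 12. Its reads of *w*, the eye pigment gene that also marks transgenes, numbered 6629, against 4081 to 4613 in the other libraries of its label and 5524 to 6464 in *GMR > prp4* RNAi. Fold changes of *GMR > prp8* RNAi over *GMR/+* are therefore given with and without that library. The summed reads of 15 photoreceptor genes ranged from 1484384 to 1654214 in *GMR > prp4* RNAi, from 1419370 to 1634919 in *GMR > prp8* RNAi, where the highest value was that of replicate 14 and the next 1482843, and from 1566358 to 1654122 in *GMR/+*. Most of this sum was *ninaE*, the major rhodopsin, and single genes of the list did differ. In *prp4* RNAi 5 of the 15 were lower, *Rh2* (-0.87), *Rh4* (-0.81), *Rh3* (-0.73), *Rh5* (-0.32) and *trpl* (-0.29 on the log2 scale), and 1, *inaC* (0.21), was higher. In *prp8* RNAi 5 were lower, *Rh4* (-0.83), *inaD* (-0.46), *Rh5* (-0.40), *trp* (-0.30) and *trpl* (-0.24), and 0 higher. Without replicate 14 the same 5 were lower and 1, *Rh2*, was higher, at 0.46 (edgeR adjusted p = 0.000111). *Rh2* had 1161 reads in replicate 14, 2634 to 3179 in the other *GMR > prp8* RNAi libraries and 2032 to 2183 in *GMR/+*. Of 6 glial genes, *moody* (-0.34) and *Gs2* (-0.22) were lower in *prp4* RNAi and 0 passed in *prp8* RNAi. A list of 6 genes of tissues outside the head had at most 5 reads in sum in any library.

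All 7 genes were detected in every library, at levels that differed between the genes far more than between the genotypes. Read counts scaled to library size (CPM, with TMM factors) and divided by the length of all exons of a gene in kb gave a mean of 83.9 ± 7.74 CPM per kb for *vri* in *GMR > prp4* RNAi, 92.5 ± 9.23 in *GMR > prp8* RNAi and 96.2 ± 2.88 in *GMR/+* heads (SD, n = 5 each). *cry* followed with 50.3 ± 7.49, 42.1 ± 3.00 and 47.9 ± 2.96 CPM per kb in the same order of genotypes, and *Pdp1* with 39.7 ± 1.86, 40.3 ± 1.87 and 37.9 ± 3.77. *cyc* had 23.8 ± 1.46, 24.8 ± 1.52 and 24.4 ± 1.70 CPM per kb, and *cwo* 16.2 ± 0.820, 12.8 ± 2.28 and 16.5 ± 1.80. The lowest were *Clk*, with 1.96 ± 0.256, 1.61 ± 0.218 and 1.49 ± 0.155 CPM per kb, and *to*, with 1.08 ± 0.485, 1.003 ± 0.355 and 1.04 ± 0.192. This order was the same in the 3 genotypes. In *GMR/+* no neighbors in the order overlapped over their libraries, whereas *cry* and *Pdp1* overlapped in both knockdowns and *Clk* and *to* in *GMR > prp4* RNAi. The 2 partners of the CLK/CYC dimer thus differed in level, *cyc* being at 24.4 and *Clk* at 1.49 CPM per kb in controls. *per* had 23.9 and *tim* 158 CPM per kb in *GMR/+*. *Pdp1*, *vri*, *Clk* and *cwo* have exons that few transcripts include, so that values per kb of all exons understate these genes. The exon lengths also count 302 bp past the annotated ends of terminal exons. This is a larger part of short genes such as *cyc* (2229 bp of exon) and *cry* (2500 bp), whose values are thus understated as well.

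**Figure D1:**
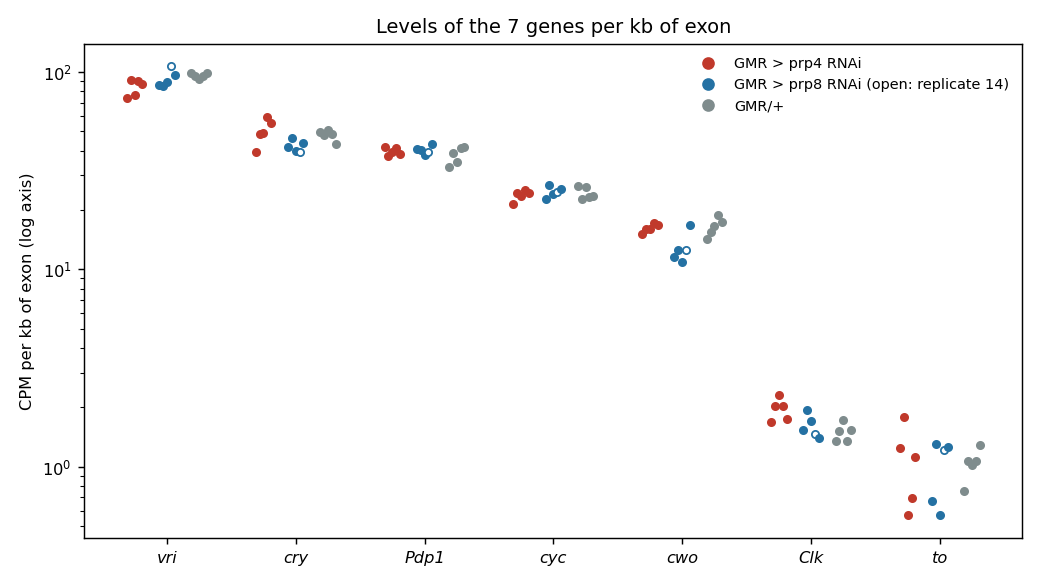
CPM per kb of exon, on a log axis, of the 7 genes in each of 15 head libraries (1 point per library, grouped by genotype, *GMR > prp4* RNAi left, *GMR > prp8* RNAi center, *GMR/+* right; the open point is the library labelled replicate 14). The genes run from *vri*, at a mean of 96.2 in *GMR/+*, down to *to*, at 1.04, and the genotypes of a gene lie close together.

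In *GMR > prp4* RNAi, 1 of the 7 genes, *Clk*, passed an adjusted p of 0.05 (edgeR quasi-likelihood test, Benjamini-Hochberg over all 9012 genes tested), and it was higher. Over all genes tested, 9.63% passed, 4.97% being higher and 4.66% lower. In *GMR > prp8* RNAi, 0 of 7 passed, against 4.73% of all 9019 genes tested, and 0 of 7 passed without replicate 14, against 5.76%. At an unadjusted p under 0.05 the edgeR count was 2 of 7 in each knockdown, where 24.1% of genes were under it in *GMR > prp4* RNAi and 20.7% in *GMR > prp8* RNAi. At an adjusted p of 0.05, DESeq2 called 2 of 7 in *GMR > prp4* RNAi and 1 of 7 in *GMR > prp8* RNAi. Over DESeq2 and 5 other settings, 794 to 953 of all genes passed in *GMR > prp4* RNAi and 405 to 624 in *GMR > prp8* RNAi. Between the knockdowns, tested in 1 fit of all 15 libraries, 0 of 7 passed, against 2.36% of 9115 genes, or 6.32% without replicate 14. Here 3 members, against 16% of genes, had an unadjusted edgeR p below 0.05. At an adjusted p of 0.05, DESeq2 called 1 member between the knockdowns and 373 of all genes. The median log2 fold change of the 7 genes was 0.06 for *prp4* and -0.06 for *prp8* RNAi over *GMR/+*, beside -0.00082 and -0.0013 over all genes tested.

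*Clk*, on the minus strand of 3L (7763233 to 7775603 in the Ensembl annotation of BDGP6 used here), had 129, 157, 175, 151 and 127 reads in *GMR > prp4* RNAi replicates 6 to 10, and 101, 117, 131, 103 and 118 reads in *GMR/+* replicates 1 to 5. The groups overlapped slightly, since the highest control library, replicate 3, lay above the lowest knockdown libraries, replicates 6 and 10. It differed from *GMR/+* by 0.39 ± 0.10 (SE) on the log2 scale, a 1.31-fold higher level with a 95% interval of 0.17 to 0.61, at an adjusted p of 0.0291. This call rested on few reads and on single libraries. It was lost without *GMR/+* replicate 1, 2 or 4 or *GMR > prp4* RNAi replicate 7, 8 or 9, with adjusted p-values between 0.0560 and 0.0783, while the log2 fold change stayed between 0.32 and 0.45 whichever library was left out. In *GMR > prp8* RNAi replicates 11 to 15, *Clk* had 119, 147, 131, 115 and 106 reads, within or near the control range. Against *GMR/+* this was a log2 fold change of 0.11 ± 0.10 (adjusted p = 0.626), and 0.14 without replicate 14 (adjusted p = 0.534). The difference between the knockdowns, 0.28 ± 0.11 higher in *prp4* than in *prp8* RNAi on the log2 scale, did not pass (adjusted p = 0.181), nor did 0.24 without replicate 14 (adjusted p = 0.244), so the knockdowns were not shown to differ in *Clk*. The lower levels of 5 photoreceptor and 2 glial genes in *GMR > prp4* RNAi, given above, stand beside the values of *Clk* and *vri* there, and their part in them was not tested.

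*cyc*, the partner of *Clk*, lies on the minus strand of 3L (19813770 to 19815938) and has 1 annotated isoform. It had 570, 657, 619, 651 and 617 reads in *GMR > prp4* RNAi, 612, 704, 637, 675 and 674 in *GMR > prp8* RNAi, and 686, 608, 689, 615 and 630 in *GMR/+*. The 3 ranges overlapped almost fully. The log2 fold change over *GMR/+* was -0.04 for *prp4* RNAi, with a 95% interval of -0.17 to 0.10 (edgeR adjusted p = 0.783), and 0.02 for *prp8* RNAi, with an interval of -0.11 to 0.16 (edgeR adjusted p = 0.892). Without replicate 14 the estimate for *prp8* RNAi was also 0.02.

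*vri*, the repressor of *Clk*, lies on the plus strand of 2L (5288944 to 5311223). It had 5283, 6504, 5387, 6218 and 5913 reads in *GMR > prp4* RNAi and 6844, 6811, 6492, 6763 and 7104 reads in *GMR/+*. In CPM, which corrects for library composition, the knockdown libraries ranged from 441 to 540 and the control libraries from 548 to 590, so the groups did not overlap, whereas raw counts of *GMR > prp4* RNAi replicate 7 and *GMR/+* replicate 3 did. No overlap in the lower direction was seen for 4.44% of all genes tested. The log2 fold change was -0.20 ± 0.06, an estimated change of -12.8% with a 95% interval of -0.33 to -0.07 on the log2 scale, and it did not pass in the edgeR fit (adjusted p = 0.0595). DESeq2 (adjusted p = 0.0256) and scaling by library size alone (0.0401) placed it past the threshold. So did leaving out *GMR > prp4* RNAi replicate 7 (0.0464) or 9 (0.0446). *GMR > prp8* RNAi libraries had 6177, 5946, 6267, 7765 and 6787 reads. The 7765 reads belong to replicate 14 and were the highest of all 15 libraries. With that library the log2 fold change over *GMR/+* was -0.06 ± 0.06 (adjusted p = 0.664), and without it -0.11 ± 0.05 (adjusted p = 0.244). Between *prp4* and *prp8* RNAi, *vri* differed by -0.14 ± 0.07 (adjusted p = 0.335), or by -0.09 without replicate 14 (adjusted p = 0.486).

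*Pdp1*, the activator of *Clk* in the same loop, spans 7811458 to 7867369 on the minus strand of 3L, with 13 annotated isoforms. Its reads numbered 7101, 6405, 6577, 6827 and 6201 in *GMR > prp4* RNAi, 6966, 6756, 6424, 6817 and 7226 in *GMR > prp8* RNAi, and 5486, 6586, 5878, 6973 and 7091 in *GMR/+*. Control replicates 1 and 3 were the lowest of the 15 libraries, and the remaining controls lay within the knockdown ranges. For *prp4* RNAi the log2 fold change was 0.07 ± 0.07 (adjusted p = 0.616), and for *prp8* RNAi it was 0.09 ± 0.07 (adjusted p = 0.526), also without replicate 14 (0.508). The 95% intervals of *Pdp1* ran from -5.4% to 15.8% in *prp4* RNAi and from -4.12% to 17.4% in *prp8* RNAi.

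**Figure D2:**
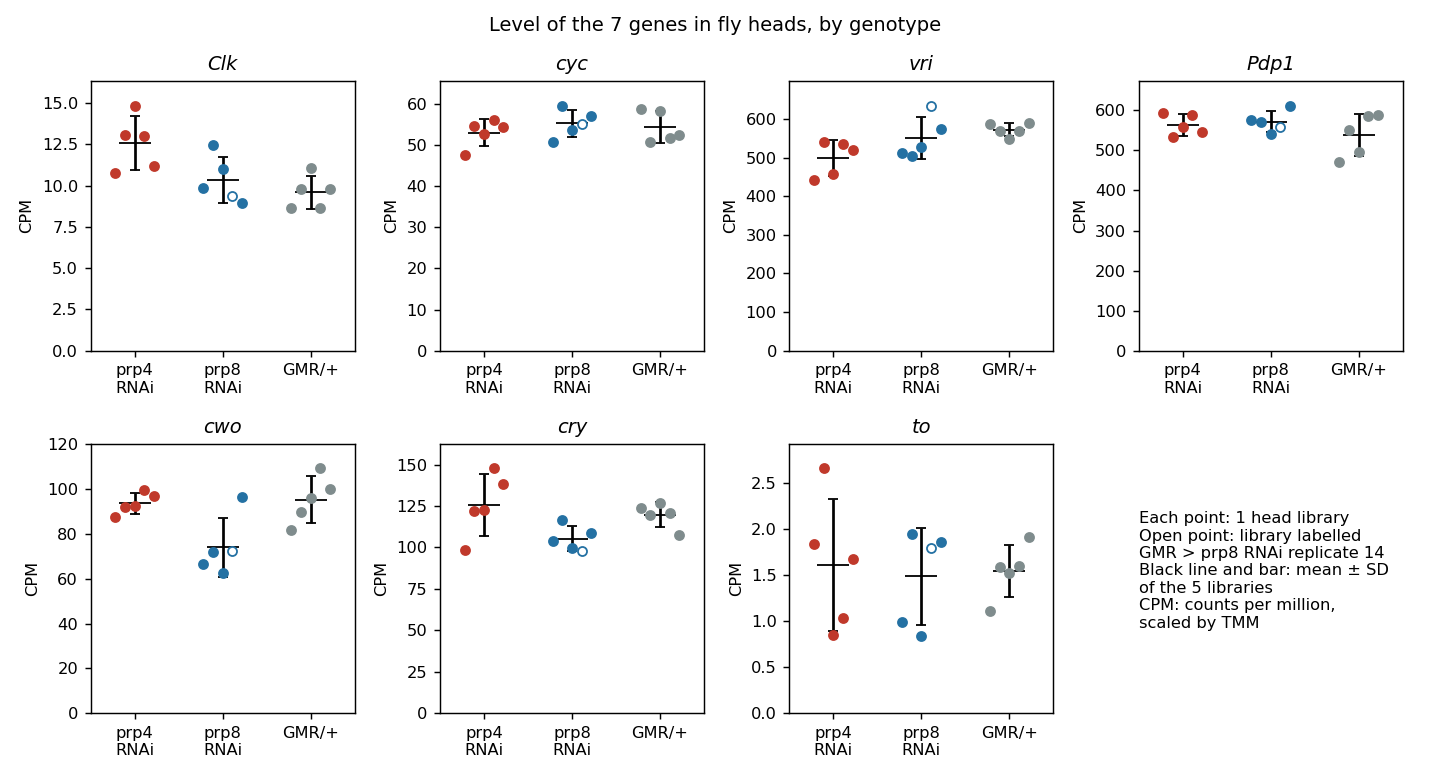
CPM of each gene in each of 15 head libraries, in *GMR > prp4* RNAi, *GMR > prp8* RNAi and *GMR/+* heads (black line and bar: mean ± SD, n = 5; open point: library labelled replicate 14). *vri* in *GMR > prp4* RNAi, at 441 to 540 CPM, lies below all controls, and 4 of the 5 *cwo* values in *GMR > prp8* RNAi lie below all controls.

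*cwo*, on the plus strand of 3R (10388258 to 10400752), had the largest estimated difference of the 7 genes in *GMR > prp8* RNAi. Its reads numbered 803, 850, 745, 887 and 1137 in *GMR > prp8* RNAi and 954, 1072, 1136, 1300 and 1201 in *GMR/+*. All but 1 of the 5 knockdown libraries lay below every control, and replicate 15, with 1137 reads, lay within the control range. Relative to *GMR/+* it differed by -0.37 ± 0.11 on the log2 scale, with a 95% interval of -0.59 to -0.14, and did not pass (edgeR adjusted p = 0.0640). Without replicate 15 it was -0.48 (adjusted p = 0.00429), and without replicate 14 it was -0.36 (adjusted p = 0.0849). It also passed with DESeq2 (0.0220), with no filter on low counts (0.0421), with all 15 libraries in 1 fit (0.0340) and without *GMR/+* replicate 1 (0.0416). In *GMR > prp4* RNAi heads, *cwo* had 1046, 1104, 1086, 1156 and 1103 reads, all within the control range, with a log2 fold change of -0.03 ± 0.07 (adjusted p = 0.877). The knockdowns differed by 0.34 ± 0.10 on the log2 scale, *prp4* RNAi being higher, at an adjusted p of 0.0752. This difference passed with DESeq2 (0.0261) or without *GMR > prp8* RNAi replicate 15, where it was 0.45 (0.00938), and was 0.33 without replicate 14 (0.0789).

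*cry*, on the plus strand of 3R (19212154 to 19215442) with 1 annotated isoform, had 1179, 1467, 1445, 1718 and 1570 reads in *GMR > prp4* RNAi, 1254, 1376, 1184, 1198 and 1286 in *GMR > prp8* RNAi, and 1445, 1433, 1505, 1441 and 1294 in *GMR/+*. In raw reads, 4 of the 5 *GMR > prp8* RNAi libraries, all but replicate 12, lay below every control. In CPM, replicate 15, at 108.9, also lay above the lowest control, replicate 5, at 107.6. *GMR > prp4* RNAi libraries spread on both sides of the controls. In *prp8* RNAi it differed from *GMR/+* by -0.19 ± 0.06 (adjusted p = 0.0953), and -0.16 without replicate 14 (adjusted p = 0.147). It passed only when *GMR/+* replicate 5 was left out (-0.22, adjusted p = 0.0399). For *prp4* RNAi it was 0.07 ± 0.09 (adjusted p = 0.694). The knockdowns differed by 0.26 ± 0.08, *prp4* RNAi being higher, at an adjusted p of 0.133, by 0.23 without replicate 14 (adjusted p = 0.169), and by 0.33 without *GMR > prp4* RNAi replicate 6 (adjusted p = 0.0174). *GMR > prp4* RNAi replicates 9 and 10, the 2 libraries with most *cry* reads of all 15, also had most reads of the fat body gene *Lsp2*, 173712 and 202339, against 14912 to 92559 in the other 13 libraries. Another fat body gene, *Cg25C*, was not higher in these 2 libraries, with 882 and 791 reads, against 851 to 956 in *GMR/+*. *Fbp1* and *Fbp2*, also on the fat body list, had at most 5 reads in any library. The part of fat body genes in the level of *cry* was not tested. Nor was the part of the photoreceptor genes in the values of *cry* or *cwo*. Of these genes, 5 were lower in *GMR > prp8* RNAi, *Rh2* was higher without replicate 14, and the summed reads were lower in 4 of its libraries.

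*to*, on the plus strand of 3R (25240180 to 25241668), was barely detected. It had 22, 32, 10, 12 and 19 reads in *GMR > prp4* RNAi, 12, 23, 10, 22 and 22 in *GMR > prp8* RNAi, and 13, 19, 18, 19 and 23 in *GMR/+*. The ranges overlapped, and the log2 fold changes over *GMR/+* were 0.06 with a 95% interval of -0.54 to 0.66 for *prp4* RNAi (edgeR adjusted p = 0.931) and -0.06 with an interval of -0.60 to 0.48 for *prp8* RNAi (edgeR adjusted p = 0.928). Without replicate 14 the estimate for *prp8* RNAi was -0.14 (adjusted p = 0.832). These intervals of *to* span -31.1% to 58.1% in *prp4* RNAi and -33.9% to 39.7% in *prp8* RNAi. Changes within them were not detectable with so few reads and this spread between libraries.

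**Figure D3:**
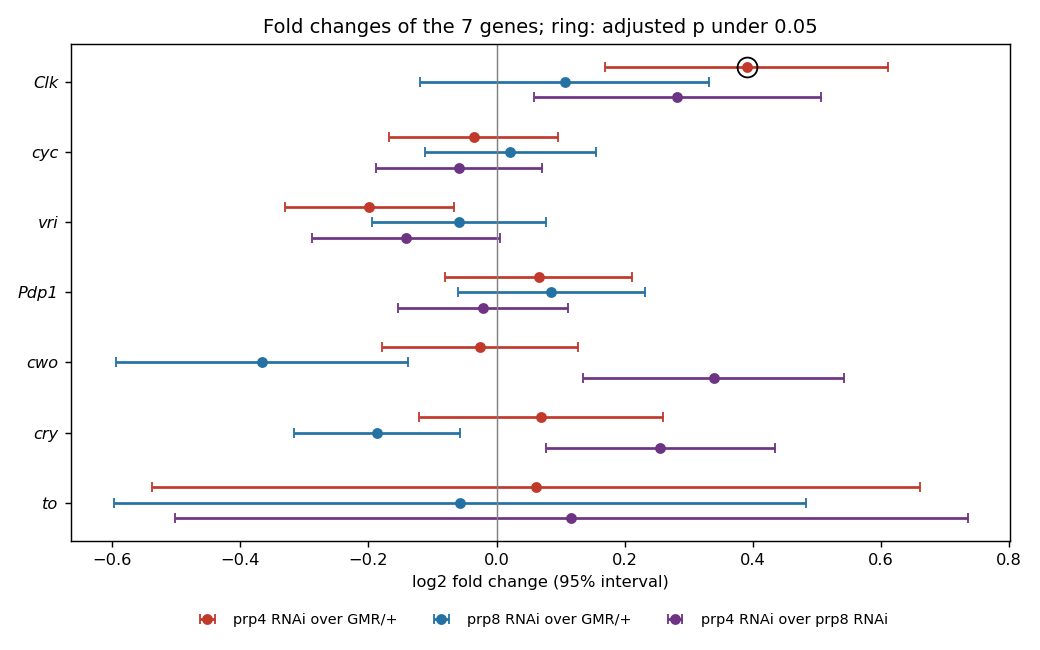
Log2 fold changes of the 7 genes (points) with 95% intervals (bars) for *prp4* RNAi over *GMR/+*, *prp8* RNAi over *GMR/+* and *prp4* over *prp8* RNAi; a ring marks an adjusted p under 0.05. The only ring is at *Clk* in *prp4* RNAi, at 0.39, and the intervals of *to* are the widest.

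As the targeted proteins act in splicing, the reads of the 7 genes were next resolved by junction and exon. Reads within introns were not counted, so retention of introns of these genes was not measured directly. Of the 1827 junctions listed with a member alone, 1467 had 1 read in all 15 libraries together and 45 matched an annotated intron, and these 45 held 91.5% of the junction reads. Of the 45, 1 listed with *cry* is an intron of *lncRNA:CR46393*, which shares the first exon of *cry* and whose reads there cannot be told apart, and its junction had means of 0.40, 0.20 and 0.80 reads in *GMR > prp4* RNAi, *GMR > prp8* RNAi and *GMR/+*. Junction use, the count of a junction relative to all junctions of its gene, could be tested for *cyc*, *vri*, *Pdp1*, *cwo* and *cry*. It changed in 0 of these 5 genes in either knockdown (edgeR diffSpliceDGE, Simes adjusted p = 0.99997 for each in *prp4* RNAi and 0.99982 in *prp8* RNAi), where 0.562% of 4445 genes changed in *GMR > prp4* RNAi and 0.291% of 4464 in *GMR > prp8* RNAi. None of the 5 had an unadjusted p below 0.05, the lowest being 0.338 for *vri* in *prp4* RNAi, and their adjusted p stayed at 0.9997 or above whichever library, replicate 14 included, was left out. Exon use could be tested for all 7 genes and changed in 0 of them, against 0.962% of 7484 genes in *prp4* RNAi and 0.601% of 7491 genes in *prp8* RNAi. The lowest value of a member, and the only one under 0.05 before adjustment, was that of *Pdp1* in *prp8* RNAi (edgeR adjusted p = 0.584). Counts of exons that overlap share reads.

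That value of *Pdp1* came from an exon at the 5′ end of a group of isoforms, at 3L:7853183-7855850. It had 90, 96, 81, 77 and 82 reads in *GMR > prp8* RNAi, and 70, 108, 74, 156 and 127 reads in *GMR/+*. The control libraries spread on both sides of the knockdown libraries. Relative to the other exons of *Pdp1* its log2 change was -0.33 (edgeR adjusted p = 0.107 over all exons), or -0.31 without replicate 14 (adjusted p = 0.242), and -0.16 in *prp4* RNAi, which did not pass. A shorter exon that lies within it, 3L:7853183-7854189, went the other way. Its log2 change was 0.13 in *prp8* RNAi, 0.21 without replicate 14 and 0.20 in *prp4* RNAi, and none of these passed.

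*Pdp1* and *cwo* were the members with splice sites that join more than 1 partner at a mean of at least 10 reads. There were 5 such sites, at which 7 shares were computed per library and compared with *GMR/+* by exact two-sided permutation tests, 14 in all, with 0.00794 the smallest p possible. The donor at 3L:7830386, used by *Pdp1*-RD and *Pdp1*-RJ, was joined either to an exon of 42 bases or past it to the next exon. The share that included the short exon was 25.7% ± 3.42 in *GMR > prp4* RNAi, 22.3% ± 4.13 in *GMR > prp8* RNAi and 23.9% ± 2.30 in *GMR/+* (SD, n = 5 each), with exact p-values of 0.341 and 0.492 against *GMR/+*. The exon at the donor 7830386 is not the first of *Pdp1*-RD and *Pdp1*-RJ. Annotated introns join it to an exon upstream, with means of at most 1.4 reads in any genotype. In *GMR/+*, a mean of 118 reads per library joined it directly to the acceptor at 7818224, as in *Pdp1*-RJ. The exons that *Pdp1*-RB and others and *Pdp1*-RC join to this acceptor gave few reads, with means of 6.2 and 5.8. The exon shared by RD and RJ thus gave most reads into this acceptor in heads. Of the reads into this acceptor from that exon or from the 42-base exon, 35.1% ± 3.78, 32.2% ± 3.01 and 32.5% ± 1.07 came from the 42-base exon in *GMR > prp4* RNAi, *GMR > prp8* RNAi and *GMR/+* (exact p = 0.183 and 0.849). With 1 library left out, the exact p in *prp4* RNAi ran from 0.00794 to 0.365. It was under 0.05 only without *GMR > prp4* RNAi replicate 6, the lowest of its group.

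Downstream, a pair of tandem donors 9 bases apart fed the *Pdp1* acceptor at 7817663. The donor that gives the shorter exon, annotated in *Pdp1*-RL and *Pdp1*-RN, took 33.7% ± 3.62 of reads in *GMR > prp4* RNAi, 33.9% ± 3.15 in *GMR > prp8* RNAi and 36.1% ± 1.77 in *GMR/+* (exact p = 0.254 and 0.230, n = 5 each). The next *Pdp1* donor, at 7817436, was joined to 3 acceptors. The acceptor common to most isoforms took 90.4% ± 1.73, 90.6% ± 1.23 and 89.4% ± 1.20 of reads in the same order of genotypes. That of *Pdp1*-RI, whose exon is shorter by 114 bases, took 5.70%, 6.32%, 6.54%, 8.69% and 8.55% in *GMR > prp4* RNAi, 6.82%, 7.78%, 6.49%, 8.24% and 6.38% in *GMR > prp8* RNAi, and 8.56%, 9.70%, 8.25%, 7.79% and 8.15% in *GMR/+*. Of the *GMR > prp8* RNAi libraries, all but replicate 14 lay below every control, replicate 12 only just, with 36 of 463 reads against 36 of 462 in *GMR/+* replicate 4. The *Pdp1*-RI share differed from *GMR/+* by -1.35 percentage points in *prp8* RNAi (exact permutation p = 0.0317, n = 5 each), by -1.63 points without replicate 14 (exact p = 0.00794) and by -1.33 points in *prp4* RNAi (exact p = 0.111), or -1.71 points without *GMR > prp4* RNAi replicate 9 (exact p = 0.0476). The difference in *prp8* RNAi was the only one of the 14 comparisons with a p under 0.05. These p-values were not adjusted, no share of all splice sites was computed beside them, and 3 of the 7 shares divide the reads of this 1 donor. Its p was above 0.05 when any of 6 libraries was left out, *GMR > prp8* RNAi replicate 11, 13 or 15 or *GMR/+* replicate 1, 2 or 3 (exact p of up to 0.0714). In *prp4* RNAi the exact p ran from 0.0476 to 0.222 with 1 library left out. The *Pdp1*-RM acceptor, which lengthens the exon by 15 bases, took 2.42% ± 0.526, 2.23% ± 0.631 and 2.12% ± 0.728. Without replicate 14 the other 6 shares also had exact p-values above 0.05 in *prp8* RNAi.

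In *cwo*, the donor of the first exon at 3R:10389438 was joined to the second exon of *cwo*-RA or to that of *cwo*-RC. The RC junction took 22.5% ± 1.99 of these reads in *GMR > prp4* RNAi, 19.3% ± 5.95 in *GMR > prp8* RNAi and 17.6% ± 7.31 in *GMR/+* (exact p = 0.198 and 0.722, n = 5 each). On average 60.0, 52.0 and 63.2 reads per library lay behind these *cwo* shares, so single libraries were imprecise. With 1 library left out, the difference in *prp4* RNAi ran from 2.29 to 7.08 percentage points and its exact p from 0.0317 to 0.397. The exact p was under 0.05 only without *GMR/+* replicate 1, where the difference was 7.08 points.

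**Figure D4:**
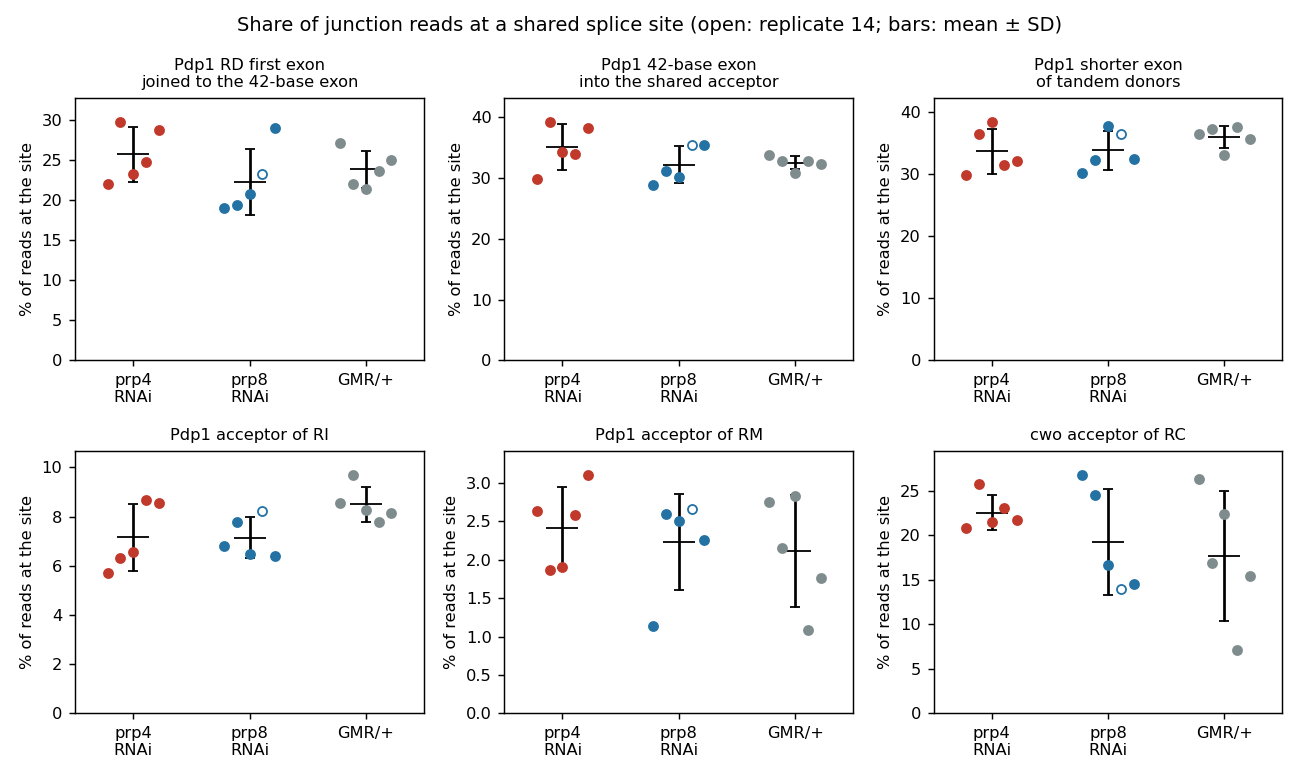
Percent of junction reads at a shared splice site taken by the named *Pdp1* or *cwo* junction, in each of 5 libraries per genotype (*GMR > prp4* RNAi, *GMR > prp8* RNAi, *GMR/+*; bars: mean ± SD; open point: library labelled replicate 14). The groups overlap in every panel. The panel titled *Pdp1* RD first exon shows the donor at 7830386, whose exon is internal in *Pdp1*-RD and *Pdp1*-RJ. The *Pdp1*-RI acceptor, at a mean of 7.14% in *GMR > prp8* RNAi and 8.49% in *GMR/+*, had an exact p of 0.0317.

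In *vri*, 217 ± 25.2, 235 ± 42.6 and 228 ± 38.5 reads joined the 5′ exon of *vri*-RA, *vri*-RD and *vri*-RF to the common second exon in *GMR > prp4* RNAi, *GMR > prp8* RNAi and *GMR/+*, and 9.40 ± 3.13, 9.20 ± 5.02 and 7.60 ± 3.65 reads joined that of *vri*-RE, across an intron of 18055 bp. The intron of 108 bp that follows had 136 ± 22.7, 150 ± 23.6 and 176 ± 27.8 reads across its junction. Relative to the other *vri* junctions this was a log2 change of -0.12 in *prp4* RNAi and of -0.11 in *prp8* RNAi, and neither passed. *cry* has 1 annotated isoform, and its 3 junctions had 62.4, 118 and 99.0 reads on average in *GMR > prp4* RNAi, 58.6, 98.8 and 85.4 in *GMR > prp8* RNAi and 63.2, 112 and 92.8 in *GMR/+*. In *Clk*, the junction across the last intron, of 62 bp, had the most reads, 25.2 ± 5.76 in *GMR > prp4* RNAi, 19.2 ± 6.61 in *GMR > prp8* RNAi and 13.8 ± 3.83 in *GMR/+*. The junctions nearer its 5′ end that separate *Clk*-RA, *Clk*-RD and *Clk*-RF had means under 3 reads, so which *Clk* isoforms heads contain could not be measured at this depth. *to* had at most 5.80 reads on average at any junction.

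Annotated junction reads per 100 gene reads gave a measure of spliced reads per gene, added after the data were seen. They averaged 31.6 ± 4.08 for *Clk* in *GMR > prp4* RNAi and 27.8 ± 4.01 in *GMR/+* (exact permutation p = 0.175, n = 5 each), the lowest p of the 12 tests over 6 genes. For *Pdp1* they were 18.1 ± 0.988 and 18.5 ± 0.539, and for *vri* 6.18 ± 0.130 and 6.04 ± 0.459. In *GMR > prp8* RNAi, *cwo* had 17.3 ± 1.59, against 16.7 ± 0.698 in *GMR/+*. None of the 12 tests had a p under 0.05, also with any 1 library left out (lowest exact p = 0.103), which 6.19% of 5831 genes had in *prp4* RNAi and 6.16% in *prp8* RNAi.

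Other clock genes were set beside the members as a list of 21 genes with a part in the clock, including *per* and *tim*, kinases, phosphatases and degradation factors. In *GMR > prp4* RNAi, 3 of the 21 were higher and 0 lower, with a list median of 0.04 on the log2 scale. These were *Cul3*, a ubiquitin ligase subunit (0.26 ± 0.06, adjusted p = 0.0208), *tws*, a regulatory subunit of protein phosphatase 2A (0.25 ± 0.06, 0.0149), and *tim* (0.22 ± 0.05, 0.0145), which had 14955 to 16546 reads in *GMR > prp4* RNAi and 12957 to 14531 in *GMR/+*. In *GMR > prp8* RNAi, 2 were higher and 0 lower with or without replicate 14, and the list median was -0.01. *tws* differed by 0.25 ± 0.05 (adjusted p = 0.0199, or 0.0174 without replicate 14) and *per* by 0.20 ± 0.05 (adjusted p = 0.0315, or 0.0363), *per* having 1633 to 1733 reads in *GMR > prp8* RNAi and 1315 to 1562 in *GMR/+*. *per* was also lower in *prp4* than in *prp8* RNAi (-0.24 ± 0.06, adjusted p = 0.0377, or 0.0299 without replicate 14). *tim* lay the other way (0.12 ± 0.06, adjusted p = 0.308, or 0.15 and 0.0946 without replicate 14). The shares of the list past the threshold, 3 and 2 of 21, stand beside 9.63% and 4.73% of all genes, of which 2.36% were higher and 2.37% lower in *prp8* RNAi.

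**Figure D5:**
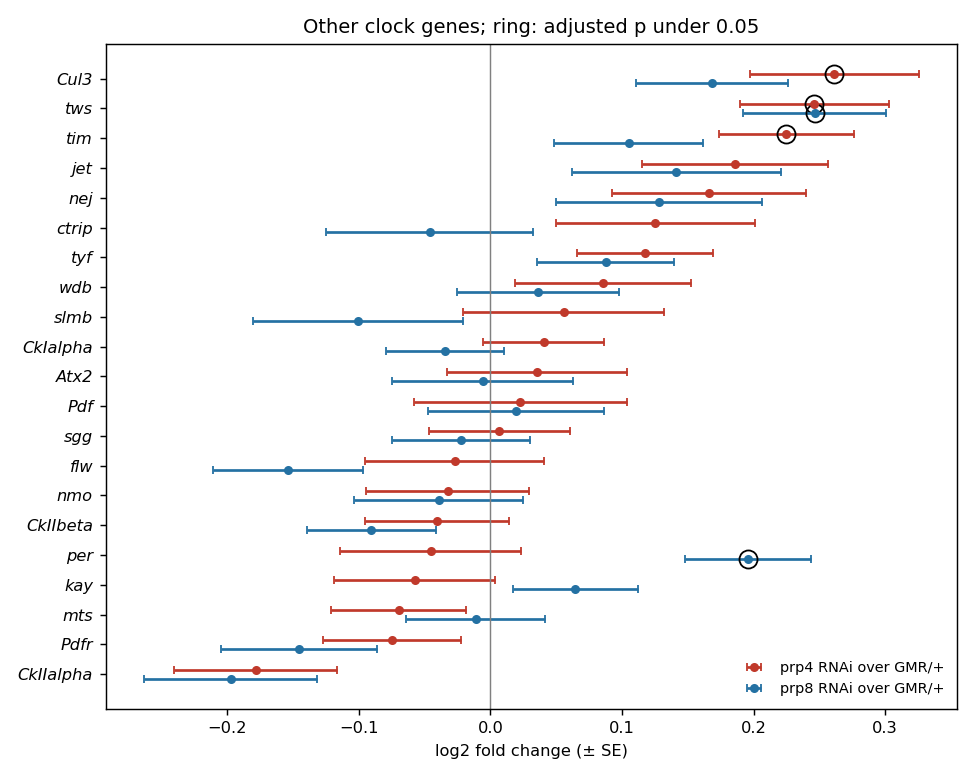
Log2 fold change (± SE) of 21 further clock genes in *prp4* RNAi and *prp8* RNAi over the same 5 *GMR/+* libraries, ordered by the value in *prp4* RNAi; a ring marks an adjusted p under 0.05. *Cul3*, *tws* and *tim* carry rings in *prp4* RNAi, at 0.26, 0.25 and 0.22, and *tws* and *per* in *prp8* RNAi.

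Besides *to*, 25 genes of the takeout family were in the table, and 17 could be tested in *prp4* RNAi and 16 in *prp8* RNAi. Of these, 2 were higher and 2 lower in *prp4* RNAi, while *phr* and *phr6-4*, the DNA photolyases related to *cry*, differed by 0.07 and -0.01 and did not pass. In *prp8* RNAi they differed by 0.06 and 0.19, and neither passed with or without replicate 14. *CG10407* had 1991 to 2205 reads in *GMR > prp4* RNAi and 3 to 12 in *GMR/+*, a log2 fold change of 8.57 ± 0.15 (adjusted p = 8.12e-14). *CG10264* had 108 to 152 reads in *GMR > prp4* RNAi and 0 in every *GMR/+* library. Both were also high in the library labelled *GMR > prp8* RNAi replicate 14, with 2064 and 132 reads. *CG14259* (-0.34 ± 0.09, adjusted p = 0.0260) and *CG2016* (-0.27 ± 0.05, 0.00722) were lower in *prp4* RNAi. In *prp8* RNAi *CG14661* (-0.61 ± 0.10, 0.00413) and *CG14259* (-0.43 ± 0.09, 0.0184) were lower and *CG1124* (0.47 ± 0.11, 0.0256) was higher, so that 3 of 16 passed, beside 4.73% of all genes, and 4 of 17 in *prp4* RNAi, beside 9.63%. Without replicate 14 the values were -0.73 for *CG14661*, -0.42 for *CG14259* and 0.50 for *CG1124*, and all 3 passed. Without replicate 14 *CG2016* was higher as well, at 0.35 ± 0.05 (adjusted p = 0.000723), against 0.24 with it (0.234). *to* itself had 10 to 32 reads over the 15 libraries.

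Genes most like each member over the 15 libraries were listed by Pearson's r of log2 CPM, as a description with no test. The libraries share genotype and a common depth, so r was also computed on deviations from the genotype means. *cry* was most like *CG30046* (r = 0.94, and 0.90 on deviations), *CG9701* and *Cyp309a2*. *cwo* was most like *Nep3* (0.93 and 0.87), *AstC-R2* and *CG7589*, and *Pdp1* most like *fz4* (0.90 and 0.88), *jeb* and *ps*. *Clk* was most like *GluRIIA* (0.86 and 0.72), *CR44181* and *fl(2)d*, and *cyc* most like *Six4* (0.87 and 0.88), *eap* and *Drp1*. *vri* came closest to *CG9919* (0.84 and 0.85), *Lrr47* and *CG12413*, and *to*, at its low counts, to *Shawl* (0.83 and 0.85), *Trim9* and *kek5*. No member was among the 3 genes most like another member.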

How the data were processed

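Total RNA of fly heads was made into libraries with the Lexogen SENSE mRNA-Seq kit and sequenced on a NextSeq 500. The authors aligned reads to BDGP6 with STAR 2.5.3a (submitters' processing notes) and used PORT to remove ribosomal and mitochondrial reads and resample libraries to equal depth. The deposited values are whole-number read counts per gene, exon and junction, counted after that resampling. Gene and terminal exon ends in the tables reach 302 bp past those of the Ensembl annotation used here. All 15 libraries were used, grouped by genotype. Members and gene lists were chosen with earlier results of these data known. Gene counts were filtered (filterByExpr), scaled (TMM) and tested with the edgeR 4.0.16 quasi-likelihood test, 5 against 5, or with all 15 libraries between the knockdowns; p-values were adjusted over all genes tested at 0.05. Standard errors are the log2 fold change over the root of F. Junction and exon use was tested with diffSpliceDGE on features with at least 10 reads in at least 5 libraries. Shares were compared by exact permutation over 252 arrangements. Named were all members, list genes past the threshold, and the 3 genes most like each member. Alternatives were limma-voom 3.58.1, DESeq2 1.42.0, other scaling and filters, and leaving out each library. The tests were checked on simulated counts. Intervals cover counting and library spread only.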

Additional observations from a re-analysis of the deposited data

Results flagged for a closer look

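Among the members, 1 value stood far from the others of its group. The library labelled *GMR > prp8* RNAi replicate 11 had 1.14% of reads at the *Pdp1* donor 7817436 joined to the acceptor of *Pdp1*-RM, from 5 junction reads, against 2.26% to 2.66% in the other 4 *GMR > prp8* RNAi libraries and 1.08% to 2.84% in *GMR/+*. The gap took up 0.74 of the range of the group, above Dixon's limit of 0.71 for 5 libraries. Gene levels and shares made up 42 groups searched, in which chance gives about 2.1 such values. No gene level of a member met the limit, and none differed between the knockdowns past an adjusted p of 0.05 in the edgeR fit.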

How the results depend on the processing

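No paired analysis was possible because each library has a replicate number of its own, shared with no library of another genotype. Of 333 recomputed fold changes of the 7 genes, 314 kept their direction where called and their side of the threshold, 13 moved past it, 6 (all *Clk* in *prp4* RNAi) fell short of it and 0 called values changed sign. The cause was not tested for any change below, beyond the smaller number of libraries or features. Of the 7 genes, the 1 called in *prp4* RNAi became 2 with DESeq2 and 2 with scaling by library size only, and 0 to 1 with a library left out. The 0 called in *prp8* RNAi became 1 with DESeq2, 1 with no filter and 1 with all 15 libraries in 1 fit, and 0 to 1 with a library left out. The 0 called between the knockdowns became 1 with DESeq2 and 0 to 1 with a library left out. Over all genes, leaving out a library gave 563 to 916 calls in *prp4* RNAi (868 with all), 214 to 545 in *prp8* RNAi (427) and 75 to 579 between the knockdowns (215), the highest of these without replicate 14. Between the knockdowns DESeq2 called 373 and a fit of only the 10 knockdown libraries 84. Genes with changed junction use in *prp4* RNAi numbered 25, or 48 by a gene-level F test and 13 at a minimum of 50 reads. In *prp8* RNAi they numbered 13, or 22 by the F test, 5 at 50 reads, 26 by limma diffSplice and 6 to 26 with a library left out, the highest without replicate 14. Genes with changed exon use numbered 72 in *prp4* RNAi, or 173 by the F test, 117 by diffSplice and 41 to 85 with a library left out, and 45 in *prp8* RNAi, or 102, 28 at 50 reads and 26 to 46. Junction shares with an exact p under 0.05 numbered 0 in *prp4* RNAi and 1 in *prp8* RNAi, and 0 to 1 in each with a library left out. Depth limits what can be said of *to* and of the junctions of *Clk*, and for *to* so does the spread between libraries.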
